A study of Mus musculus with 26 samples.

Results

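The comparison was between 3 wild-type mouse embryonic stem cell libraries (WT ESC) and 3 wild-type embryoid body libraries (WT EB) in which RNA 5-hydroxymethylcytosine (5hmC) had been mapped by hMeRIP-seq, the sequencing of fragmented total RNA that an anti-5hmC antibody pulled down. WT ESC were kept in serum medium with leukaemia inhibitory factor (LIF), and WT EB are the aggregates that ESC formed in suspension in 4 days without LIF, and the labels name no other genotype or agent. The data of each library are a list of peaks, intervals of 200 bp around the summit of a pulldown signal, each with its fold enrichment over the input library of the same replicate. Intervals of the 6 lists that overlapped by at least 1 bp were merged into 13753 regions, of 23367 in the 13 lists of the whole series. Members were the 731 regions listed by 2 or more WT ESC and 2 or more WT EB libraries (shared regions), the 2837 regions listed by 2 or more WT ESC and no WT EB library (stem-cell regions) and the 289 regions listed by 2 or more WT EB and no WT ESC library (embryoid-body regions). The other 9896 regions met none of these rules. The 7 other stem cell lists of the series were used only to look the members up. They come from TKO ESC, in which Tet1, Tet2 and Tet3 are knocked out (3 libraries), and from clones picked after CRISPR editing, Tet2-KI ESC with a tagged Tet2 (2 libraries) and Tet2dRBD-KI ESC with the tagged Tet2 lacking its RNA-binding domain (2 libraries).

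Tet enzymes are dioxygenases that oxidise 5-methylcytosine, and 5hmC is the first product of that reaction, in RNA as in DNA. Stem cells held in LIF stay pluripotent, and when LIF is withdrawn and the cells are left to aggregate they begin to form the early germ layers. An unspliced transcript consists mostly of intron, and simple tandem repeats are common in introns and between genes but rare in coding exons.

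The lists differ in length, and this bears on every count that follows. WT ESC replicates 1, 2 and 3 held 4395, 7113 and 6499 peaks, and WT EB replicates 1, 2 and 3 held 498, 1831 and 3532. WT EB replicate 1 stands apart with the shortest list of the series. Replicates 2 and 3 of both groups carry 1703 at the start of their descriptions, whereas WT ESC replicate 1 carries 1608 and WT EB replicate 1 carries 1610. Results are therefore also given for the 1703 libraries apart. The lists hold no read counts, so the depth is unknown, a region without a peak is one in which no peak passed the caller's threshold, and a lost peak cannot be told apart from a shallower library or from too little RNA of that gene, be it fewer cells of a type or less RNA per cell.

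Short stretches of the reference genome show the kinds of sequence that recur in the members, all from NCBIM37 (the assembly behind mm9), written on the strand of the gene with annotated exon in capitals and intron in lower case. Intronic embryoid-body regions lay mostly beside exons, and 15 bases on each side of the exon edge nearest to the summit are given for the highest ranking of them that lie in introns, at chr2:109884329-109884358, chr14:17252840-17252869, chr15:8293643-8293672, chr1:4883483-4883512 and chr8:83232567-83232596.
Ccdc34: tttttacgattatagGTTTTTACAGTGGAA
Top2b: atttttaacacatagGGTGATCCTGATACC
Nipbl: gccttttattaatagGTAGTATAGATCAAT
Tcea1: ccatttttgccatagGAAATGGCTAGTGAT
Smarca5: AAGCTTCTGACACAGgtataacctttgatt

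The first 4 of these are starts of exons and the Smarca5 stretch is an exon end. The summits lay 5, 13, 23, 25 and 25 bp from the edge. Other embryoid-body regions had their summit in coding sequence, as in the 30 bases around the highest summit of Psma4 (chr9:54805517-54805546), Terf1 (chr1:15833017-15833046) and Cdc73 (chr1:145524898-145524927).
Psma4: TGATCAAAAAACATGAAGAGGAAGAAGCTA
Terf1: GAAGACAGAATTTTGAAGTGTGGTGTAAAG
Cdc73: GCTAAGAAAAGATCTACTATCAAGACTGAT

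Stem-cell regions lay mostly far inside introns or between genes, as shown by the 30 bases around the highest summits of Ebf1 (chr11:44749908-44749937), Cdh4 (chr2:179241082-179241111) and Mbnl2 (chr14:120763678-120763707).
Ebf1: ttattactggaagctttgccacggaacatg
Cdh4: gtcctgatgataaagataatgatggagttg
Mbnl2: catactcactgcaagttggaatcatcttgt

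Many stem-cell regions held a tandem repeat. Of the 3 commonest kinds, the dinucleotide AC and the tetranucleotide ACAG or CTGT are shown in capitals for introns of Odz4 (chr7:103766835-103766864) and Cadps (chr14:13549572-13549601).
Odz4: CACACACACACACACACACACACACACACA
Cadps: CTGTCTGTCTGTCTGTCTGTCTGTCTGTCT

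Shared regions whose rank was lower in every WT EB library included introns of Agtpbp1 (chr13:59612072-59612101) and Cblb (chr16:52084532-52084561), shown by the 30 bases around the highest summit and taken up again with the ranks.
Agtpbp1: tgtgtgtaagagtttaagagagtgagcatg
Cblb: gtgaggatgaggaataggtgtagtaaggag

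Presence was compared first. Of the 4190 regions listed by 2 or more WT ESC libraries, 2837 (67.7%, exact Clopper-Pearson 95% interval 66.3 to 69.1%) had no peak in any WT EB library, and of the 1299 regions listed by 2 or more WT EB libraries 289 (22.2%, upper bound 24.6%) had none in WT ESC. These intervals cover counting error only, here and elsewhere. The asymmetry went with list length. When every list was shortened to its 498 highest peaks, 167 of 318 WT ESC regions (52.5%) lacked a WT EB peak and 135 of 271 WT EB regions (49.8%) lacked a WT ESC peak. In the 1703 libraries the shares were 63.8% (1916 regions) and 24.0% (299 regions), and with those 4 lists shortened to 1831 peaks they were 47.7% and 47.3%. In the grid of library counts, 843 stem-cell regions (29.7%) were listed by all 3 WT ESC libraries, whereas 3 embryoid-body regions (1.04%) were listed by all 3 WT EB libraries. The embryoid-body regions thus rest on WT EB replicates 2 and 3 together, and 10 remained without replicate 2 and 5 without replicate 3. Leaving out 1 WT ESC library lowered the stem-cell regions to 1817, 1374 and 1326 (replicates 1, 2 and 3), and leaving out WT ESC replicate 2 raised the embryoid-body regions to 451.

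**Figure D1:**
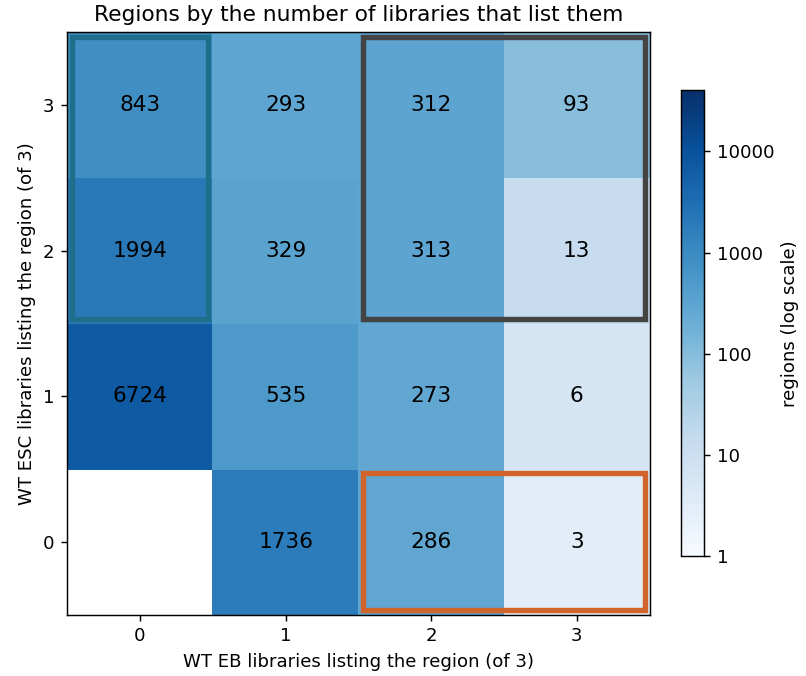
Number of regions by how many WT ESC libraries (vertical axis) and WT EB libraries (horizontal axis) list them, with the colour on a log scale. The blue frame holds the 2837 stem-cell regions, the grey frame the 731 shared regions and the orange frame the 289 embryoid-body regions, of which 3 were listed by all 3 WT EB libraries.

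The strongest regions were the least often absent from the other group. Among WT ESC regions with a mean percentile of fold enrichment above 75, 51.7% (48.5 to 54.8%) had no WT EB peak, against 72.7% (68.9 to 76.4%) of those at 25 or below. Among WT EB regions above 75, 10.1% (7.30 to 13.5%) had no WT ESC peak, against 21.4% (15.0 to 29.0%) of those at 25 or below. Between these bounds the shares were 70.7% and 75.3% for WT ESC and 28.4% and 29.3% for WT EB.

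Place in the gene also separated the classes. A WT ESC region in coding sequence had no WT EB peak in 30.1% of cases (26.4 to 34.0%, n = 582), one in an intron in 67.4% (65.4 to 69.4%, n = 2124), one in a 5′ UTR in 78.6% (69.8 to 85.8%, n = 112) and one between genes in 85.9% (83.8 to 87.8%, n = 1210). With a tandem repeat, 85.6% had none (83.5 to 87.6%, n = 1154), and without one 60.9% (59.1 to 62.6%, n = 3036). The stem-cell regions were accordingly 50.5% intronic, 36.6% intergenic and 10.8% in exons of coding genes. Shared regions were 46.6% intronic, 6.29% intergenic and 45.3% exonic, and embryoid-body regions 50.9% intronic, 3.46% intergenic and 43.9% exonic. With any overlap of the interval counted as exonic, the exonic shares became 14.8% of stem-cell and 79.9% of embryoid-body regions. With the lists shortened to 498 peaks they were 7.78% and 52.6%.

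The same shares taken over each library's whole list, which do not depend on the classes, moved the same way for repeats, exons and intergenic sequence. The 5′ UTR share did not. It was 4.53%, 1.78% and 2.78% in WT ESC replicates 1 to 3 and 6.54%, 1.45% and 1.91% in those of WT EB (exact permutation p = 0.900). Tandem repeats lay in 29.0%, 21.5% and 24.5% of the regions of WT ESC replicates 1 to 3 and in 5.52%, 8.78% and 4.00% of those of WT EB. The groups did not overlap, with means of 25% ± 3.77 and 6.10% ± 2.44 (SD, n = 3 each, two-sided exact permutation p = 0.100, the smallest that 3 against 3 can give), and the difference was 18.9 percentage points in all libraries and 16.6 in the 1703 libraries. Exons of coding genes held 21.9%, 17.6% and 17.4% of the WT ESC regions and 42.1%, 39.8% and 41.6% of the WT EB regions. Here too the groups did not overlap (19% ± 2.56 against 41.2% ± 1.24, SD, n = 3 each, exact permutation p = 0.100). Intergenic regions without a repeat made up 13.2% ± 0.775 of the WT ESC lists, against 5.28% ± 0.664 for WT EB (SD, n = 3 each, exact permutation p = 0.100). Introns without a repeat held 34.3%, 47.8% and 43.8% of the WT ESC and 46.4%, 44.6% and 48.8% of the WT EB regions, and these ranges overlapped (exact permutation p = 0.400). The lists differ in length, and the shares were therefore also taken over the 489 regions of highest fold enrichment in each library, a choice made after seeing the data. Tandem repeats then lay in 25.4%, 14.9% and 16.8% of the WT ESC and 5.52%, 5.11% and 1.84% of the WT EB regions, and exons in 17.8%, 20.9% and 20% against 42.1%, 44.4% and 52.6%. The groups still did not overlap in either share. WT EB replicate 1, the shortest list, lay with the other WT EB libraries in exons. TKO ESC replicate 1, also a short list with 964 peaks, had a repeat share of 13.2%. Its exonic share of 40.3% lay within the whole-list range of WT EB, 39.8% to 42.1%, although these are stem cells. Stem cells outside this comparison had fewer repeats than WT ESC: in the lists of TKO ESC, Tet2-KI ESC and Tet2dRBD-KI ESC the repeat share ran from 3.63% to 14.3%, below the lowest WT ESC library. Their exonic share ran from 24.8% to 46.0%, above the highest WT ESC library. These 7 lists were each merged alone, and their regions were placed by the first summit. Regions of WT ESC and WT EB were merged over all 6 lists and placed by the highest-ranking peak in any of them. A repeat in any interval of such a region was counted. The shares on the 2 sides are therefore not measured alike.

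**Figure D2:**
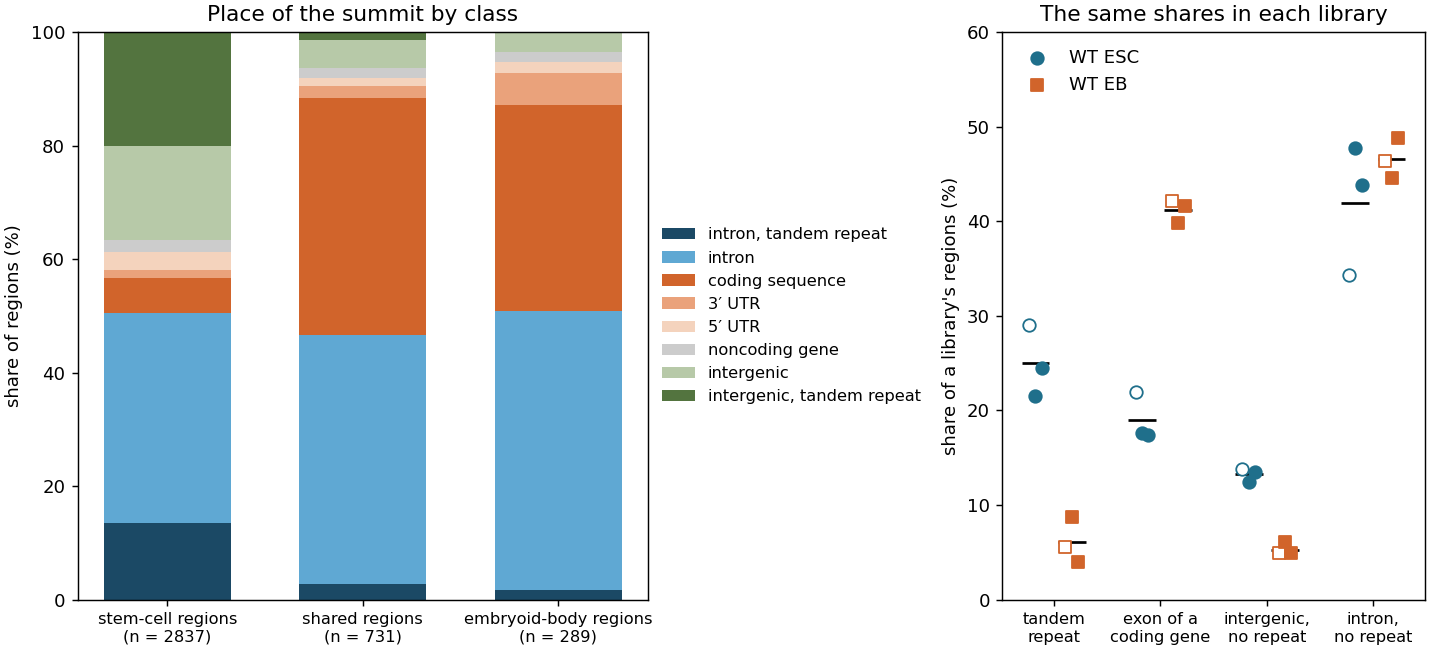
Left, the share (%) of stem-cell, shared and embryoid-body regions by the place of the summit, with regions holding a tandem repeat drawn apart for introns and intergenic sequence. Right, shares (%) of all regions of each library, with WT ESC as circles, WT EB as squares, replicate 1 open, replicates 2 and 3 filled and the mean as a bar. Tandem repeats lie between 21.5% and 29.0% in WT ESC and between 4.00% and 8.78% in WT EB, and coding-gene exons show the opposite order.

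The tandem repeats of the stem-cell regions were of few kinds. Of 988 such regions 533 (53.9%) held a run of the dinucleotide AG or, on the other strand, CT, 184 (18.6%) a run of AC or GT and 157 (15.9%) a run of the tetranucleotide ACAG or CTGT, with a median run of 28.0 bases. Among 190 intronic AG runs, 103 (54.2%, 46.8 to 61.4%) read as purines and 87 as pyrimidines on the strand of the gene, so that the strand of the transcript did not select one reading at this number of regions. Runs of AAGG and AAAG were rarer, at 19 and 15 regions, and the 13 and 10 of them that lay in introns read as purines on the gene strand. Shared regions held 38 repeats, of which 7 (18.4%) were AG runs, and embryoid-body regions held 5.

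Distance from exons set the intronic members apart. The median distance from an intronic summit to the nearest exon of its gene was 2940 bp in stem-cell regions (quartiles 704 and 12100), 677 bp in shared regions (31.0 and 3430) and 43.0 bp in embryoid-body regions (24.0 and 1400). Summits within 100 bp of an exon were 7.96% of the intronic stem-cell regions (6.61 to 9.49%), 41.9% of the shared (36.6 to 47.4%) and 70.7% of the embryoid-body regions (62.7 to 78.0%). By length, 3.94% of the intron sequence of coding genes lies that close. An interval of 200 bp whose summit is less than 100 bp from an exon overlaps that exon. The near summits fell on both sides of the exon, with 50 of 104 embryoid-body summits (48.1%, 38.2 to 58.1%) upstream of it. Over whole lists, intronic summits within 100 bp of an exon made up 6.85%, 9.13% and 8.48% of the WT ESC regions and 12.7%, 22.7% and 26.5% of the WT EB regions, without overlap between the groups (8.15% ± 1.17 against 20.6% ± 7.13, SD, n = 3 each, exact permutation p = 0.100). Summits over 1000 bp from an exon made up 33.0% ± 4.24 and 22.2% ± 4.01 of the regions (SD, n = 3 each, exact permutation p = 0.100).

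**Figure D3:**
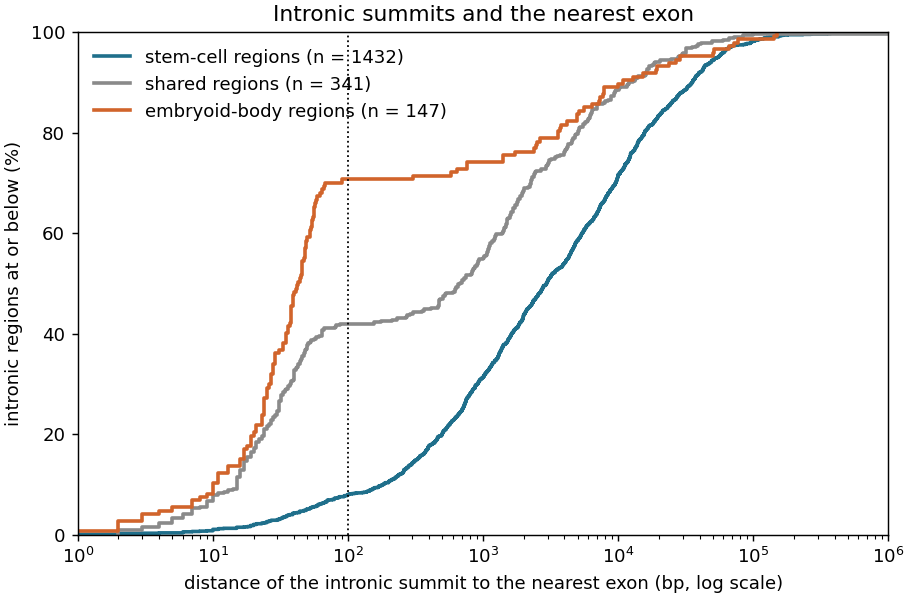
Cumulative share (%) of the intronic regions of each class by the distance of the summit to the nearest exon (bp, log scale), with a dotted line at 100 bp. The embryoid-body curve reaches 70.7% at the line, the shared curve 41.9% and the stem-cell curve 7.96%.

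Base composition differed in the same order. The 200 bases around the summit had a median GC content of 47.5% in stem-cell, 42.5% in shared and 38.5% in embryoid-body regions. Exonic summits differed more, at 60.0%, 42.5% and 39.0%. Stem-cell regions in coding genes had their summit within 500 bp of the gene start in 8.69% of cases (7.41 to 10.1%), against 1.93% of shared (1.03 to 3.29%) and 1.82% of embryoid-body regions (0.595 to 4.21%). Intronic stem-cell regions lay in genes with a median length of 115000 bp, and shared and embryoid-body ones in genes of 54600 and 55900 bp. Purine runs of 12 or more bases on the gene strand were found in 48.9% of shared regions in coding genes without a repeat (45.0 to 52.8%), 36.7% of stem-cell (34.2 to 39.4%) and 34.6% of embryoid-body regions (28.9 to 40.6%), and pyrimidine runs of that length in 8.07%, 10.4% and 5.95%.

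The 7 lists of other stem cells show which members recur. Shared regions were listed by Tet2-KI ESC replicates 1 and 2 in 94% and 73.1% of cases and by Tet2dRBD-KI ESC replicates 1 and 2 in 67.6% and 34.5%. Stem-cell regions were listed there in 57.2%, 22.6%, 24.1% and 13% of cases, and embryoid-body regions in 44.3%, 21.8%, 9.69% and 3.11%. The stem-cell share was higher than the embryoid-body share in all 4 libraries, by 12.9, 0.760, 14.4 and 9.89 percentage points (mean 9.48, two-sided exact sign-flip permutation p = 0.13, the smallest that 4 libraries can give). Without WT EB replicate 2 it was higher in 2 of the 4 (mean 2.76, exact permutation p = 0.750), and without WT ESC replicate 2 in 3 of the 4 (mean 8.48, exact permutation p = 0.250). TKO ESC replicates 1, 2 and 3 listed 8.78%, 16.9% and 21.7% of the stem-cell regions and 2.08%, 62.3% and 37.0% of the embryoid-body regions. In TKO ESC replicates 2 and 3, which also carry 1703, the order of these classes was thus opposite to that in the knock-in lists. In all, 81.0% of the embryoid-body, 70.8% of the stem-cell and 99.5% of the shared regions were listed by at least 1 of the 7 stem cell libraries that were not WT ESC, so that absence from the 3 WT ESC lists does not mark a region as missing from stem cells.

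**Figure D4:**
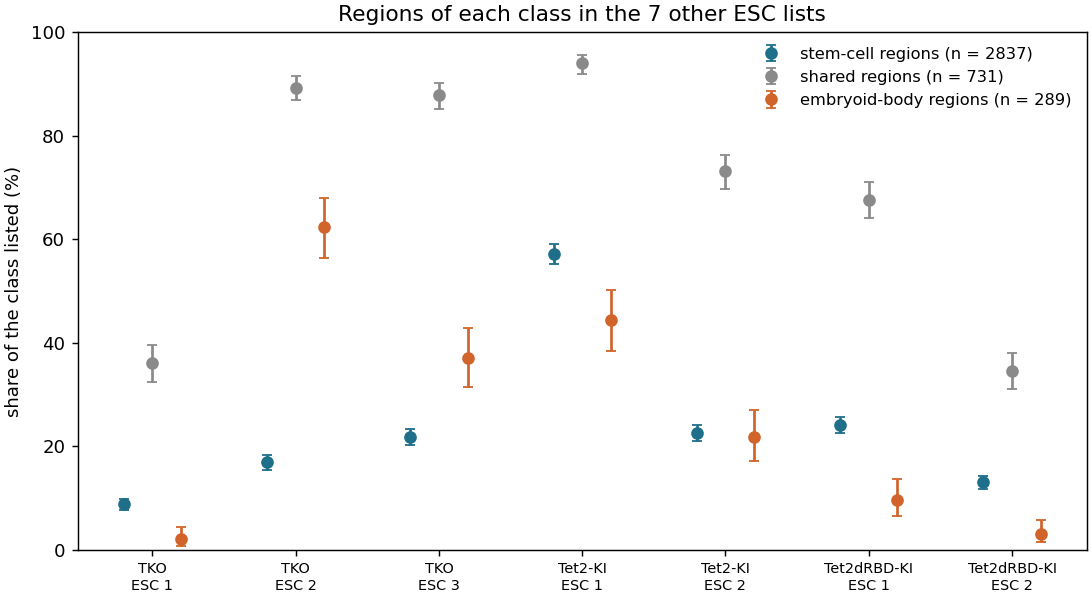
Share (%) of the stem-cell, shared and embryoid-body regions listed in each of the 7 other ESC libraries, with exact 95% intervals that cover counting error only. Shared regions are listed most in every library, and embryoid-body regions lie above stem-cell regions in TKO ESC replicates 2 and 3 (62.3% against 16.9% and 37.0% against 21.7%) and below them in the other 5.

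Regions present in both groups were then compared by rank. In each library, fold enrichment was turned into a percentile among the shared regions that the library listed, and the percentiles were compared with limma over all 731 regions. No region was called higher in WT EB (0%) and none lower (0%) at an adjusted p of 0.05, and 64 (8.76%) were higher and 75 (10.3%) lower at an unadjusted p under 0.05. The smallest p was 0.000742, with a limma adjusted p of 0.128. The balance of directions turned with the scale, with 36 higher and 88 lower for percentiles within the whole lists and 95 higher and 46 lower for log2 fold enrichment without centring, so no direction is read from these counts. No region was called in any alternative, and at this number of libraries that does not show that ranks did not change. Of the 93 regions listed by all 6 libraries, 2 (2.15%) had higher ranks in every WT EB than in every WT ESC library and 19 (20.4%) had lower ones. These percentiles were taken over 149 regions in WT EB replicate 1 and 458 to 722 in the other libraries. With every library ranked over the same 93 regions, a choice made after seeing the data, 4 (4.30%) were higher and 6 (6.45%) lower, so that most of the excess of lower ranks was not seen in the common set. In the 1703 libraries, 164 of 644 regions (25.5%) were higher in both WT EB libraries and 167 (25.9%) lower. Fold enrichment over shared regions ranked more alike within groups (Spearman's rho 0.49 to 0.63 in WT ESC and 0.49 to 0.60 in WT EB, 115 to 688 regions) than between WT ESC and WT EB replicates 2 or 3 (0.17 to 0.40, 426 to 701 regions). WT EB replicate 1 had a rho of 0.57 to 0.65 with the WT ESC libraries over 133 to 147 regions. These are correlations across regions, which are not independent replicates.

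The regions named for their ranks come from the 93, and none of them was called. Higher in WT EB were a 5′ UTR region of Ndel1, a dynein regulator of neuronal migration (chr11:68666363-68666615), and a coding region of Hnrnpa2b1, an RNA-binding protein (chr6:51415984-51416611). The Ndel1 percentiles were 4.80, 2.96 and 4.51 in WT ESC and 36.2, 8.86 and 26.7 in WT EB, a difference of 19.8 (SE 9.90, limma adjusted p = 0.335), and Hnrnpa2b1 stood at 28.4, 27.7 and 28.2 against 28.9, 46.8 and 42.9, a difference of 11.4 that was 0.484 with the mean of a region's peaks in place of the highest. Without WT EB replicate 2 the Ndel1 difference was 29.9. The WT EB values of both spread widely, and the lowest of them lay close to WT ESC.

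Of the 19 lower ones the 10 with the greatest difference were named, which were chosen for groups that do not overlap. In the ranking over the 93 regions 4 of these 10 had no overlap. Agtpbp1, an enzyme that removes glutamates from tubulin, held an intronic region (chr13:59611872-59612246) with fold enrichments of 11.8, 33.7 and 31.6 in WT ESC and 6.11, 7.47 and 5.65 in WT EB. Its percentile fell by 55.5 on average (SE 12.5, limma adjusted p = 0.128), and the WT EB percentiles of 59.4, 38.4 and 17.9 spread more than the gap to the lowest WT ESC value of 84.2. Cblb, a ubiquitin ligase of receptor signalling (chr16:52084428-52084698), had 18.6, 21.9 and 18.4 in WT ESC and 5.43, 10.1 and 6.12 in WT EB. Their summits lay 1599 and 27668 bp from an exon. Pde4d, a cyclic AMP phosphodiesterase (chr13:110574365-110574643), had 22.6, 30.8 and 17.7 against 5.43, 6.08 and 13.3. Lmf1, Hnrnpa3, Gnas and Kctd3 were also lower in introns, Eif3a in coding sequence and Kank2 in its 3′ UTR. Their rank differences ran from -43.2 for Lmf1 to -36.1 for Kctd3, with limma adjusted p between 0.128 and 0.217. These sizes depended on single libraries and on the set ranked. For the 10 regions they ran from -48.2 (Pde4d) to -13.2 (Lmf1) without WT EB replicate 3, from -43.2 to -19.2 (Gnas) without WT EB replicate 2, and from -42.5 (Agtpbp1) to -16.1 (Gnas) over the 93 regions. The Hnrnpa3 summit lay 47 bp from an exon, and Lmf1 and Gnas held a tandem repeat. Tsix, the antisense transcript that restrains Xist (chrX:100651108-100651554), had 28.9, 28.2 and 22.5 in WT ESC and 9.53, 4.98 and 8.87 in WT EB. Its WT EB replicate 1 still ranked at 88.6, and the difference of -49.0 (SE 18.4) had a limma adjusted p of 0.217 and was -22.0 without WT EB replicate 2.

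**Figure D5:**
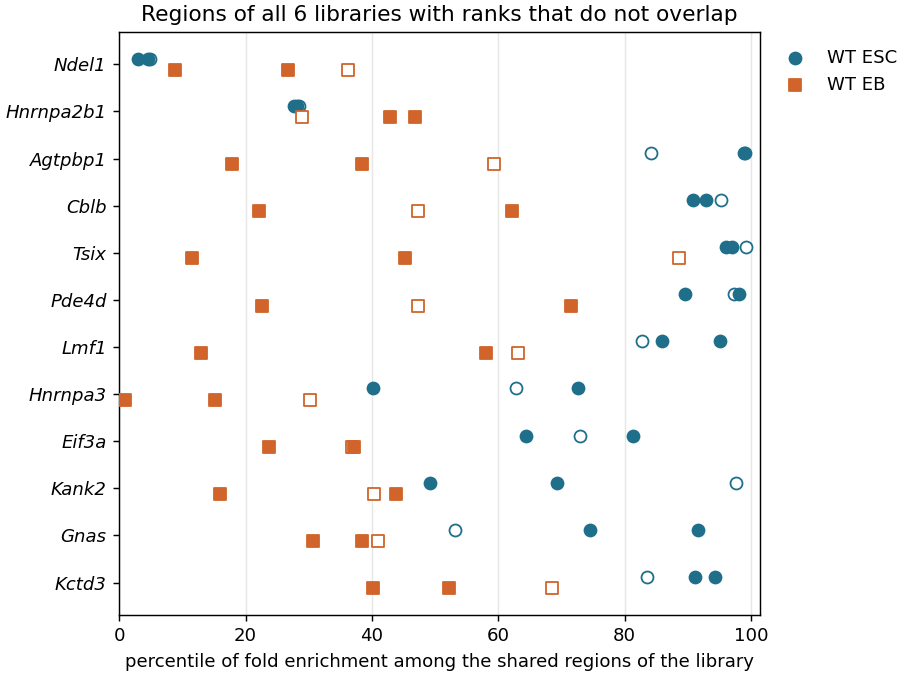
Percentile of fold enrichment among the shared regions of each library for the 2 regions with higher and 10 of the 19 with lower ranks in all WT EB libraries, out of 93 listed by all 6, of which 6 were lower when all libraries were ranked over the 93. WT ESC are circles, WT EB squares, and replicate 1 is open. The WT EB values of 1 region can lie far apart, as for Tsix from 11.6 to 88.6, and no region passed the test.

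Regions at the top of both groups lay in introns of Calm2, which encodes the calcium sensor calmodulin (chr17:87836847-87837693, fold enrichments 23.3, 35.4 and 61.3 in WT ESC and 14.8, 24.5 and 20.9 in WT EB), of Med13l, a subunit of the kinase module of Mediator (31.0, 23.0 and 24.7 against 10.6, 28.9 and 18.8), and of Ube2v1, where it overlaps Tmem189 (24.8, 27.1 and 32.1 against 10.2, 16.6 and 25.4). All 3 stood at a percentile of 94.8 or above in every list, and all were listed by each of the 7 other ESC libraries.

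The stem-cell regions were led by introns. The highest by the lowest percentile over the 3 WT ESC lists lay in Ebf1, a transcription factor of B cells and neurons (chr11:44749797-44750022), at fold enrichments of 13, 13.5 and 13.2, and 11845 bp from an exon. Cdh4, the cell adhesion protein R-cadherin (chr2:179240977-179241196), followed at 12.6, 17.3 and 17.4, and its summit lay 61580 bp from an exon. Zdbf2, an imprinted gene (chr1:63325712-63325926), held a tandem repeat and had 12.6, 25.6 and 17.1. The spread between libraries was least for Ebf1 and greatest for Tsc2, a repressor of mTOR signalling, at 26.4, 11.2 and 11.2. The other regions named by this rule lay in Agrn (agrin, 11.8, 13.9 and 12.3), Rbm7 (a subunit of the nuclear exosome targeting complex, 17.7, 21.4 and 11.4), Mbnl2 (a splicing regulator, 11.4, 13.6 and 16.8), Xylt1 (which starts the sugar chains of proteoglycans, 13, 15.7 and 10.8) and Dis3l2 (an RNA exonuclease, 11, 13.9 and 13.2). The same rule named the introns of Trp53, Erc1 and Fto, at means of 12.8, 14.3 and 12.8. All 12 were introns. Of these, Mbnl2 and Cdh4 were listed by all 3 TKO ESC libraries, and Trp53, Erc1 and Fto by none.

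Only 3 embryoid-body regions were in all 3 WT EB lists. Among them, an intronic region of Snx2, a sorting nexin, lay 48 bp from an exon and had fold enrichments of 4.48, 7.21 and 5.2, and the 3′ UTR of Amot, which binds YAP at cell junctions, had 8.57, 6.07 and 4.97. Neither was strong in all lists, with lowest percentiles of 18.0 for Snx2 and 15.9 for Amot. The stronger ones were in WT EB replicates 2 and 3 and absent from replicate 1. Ccdc34, a coiled-coil gene (chr2:109884240-109884442), had 17.1 and 20.4. Psma4, a proteasome subunit (chr9:54805432-54805634), had 16.8 and 16.4. Caprin1, a stress granule protein (chr2:103636905-103637123), had 13 and 49.3, the widest spread of them. Terf1, a telomere-binding protein (chr1:15832917-15833131), had 13.3 and 13, and Cdc73 of the PAF1 elongation complex (chr1:145524791-145525012) had 12.8 and 13.2. The topoisomerase Top2b had 12.8 and 20.4, the cohesin loader Nipbl 14.1 and 12.7, the elongation factor Tcea1 11.9 and 16.6 and the chromatin remodeller Smarca5 11.7 and 12, each in an intron within 25 bp of an exon. TKO ESC listed Psma4 and Terf1 in 2 libraries each and knock-in ESC in 4 and 3, so that these were not missing from stem cells.

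Genes were counted next. Of 4742 coding genes with a region in any of the 6 libraries, 1361 (28.7%) held a stem-cell region, 431 (9.09%) a shared region and 204 (4.30%) an embryoid-body region. In 984 of the 1361 no region of the gene had a WT EB peak, and in 377 one lay elsewhere in the gene. Of the 204 genes with an embryoid-body region, 163 had a WT ESC peak elsewhere and 41 had none. Among the 30 genes with 4 or more stem-cell regions, Pde4d and the zinc finger gene Zfp704 held 9 each and Odz4, a teneurin, 7, and these were not the highest count. Both one-sided kinds occurred in 38 genes. In Npm1, a nucleolar chaperone, WT ESC replicates 2 and 3 listed an intronic region (chr11:33059750-33060145, 7.06 and 5.72) and WT EB replicates 2 and 3 a 3′ UTR region (chr11:33052617-33052908, 8.15 and 5.96). Sept7, Fnbp1l, Ccdc34, Ggnbp2, Ppid and Zfp462 were further examples. The WT EB summit lay 23, 10 and 5 bp from an exon in Sept7, Fnbp1l and Ccdc34, but 1407 bp away in Ggnbp2 and 15178 bp away in Zfp462 and within the coding sequence in Ppid. The stem-cell summit of Ccdc34 lay 26 bp from one.

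Gene lists were counted against these shares, with no test. In the 5 signalling lists no gene held an embryoid-body region, against 4.30% of all genes, and the stem-cell shares lay on both sides of the 28.7% of all genes. Of 9 LIF and JAK-STAT genes with a region, 4 (44.4%) held a stem-cell region, and none held a shared or embryoid-body one. Of all 1361 genes with a stem-cell region 984 had no WT EB peak anywhere, and the same held for these 4. They were Stat5a (8.0 and 7.01 in WT ESC replicates 1 and 3) and Stat5b (5.94 and 8.09), transcription factors of the pathway, Pias3, an inhibitor of STAT3, and Gab1, an adaptor. Of 12 Notch and Hedgehog genes 6 (50.0%) held one, among them Gli2, the Hedgehog transcription factor (13.9, 12 and 6.98), Rbpj, the Notch transcription factor, Numb, a Notch inhibitor, and Adam10, a protease that cleaves Notch. The counts were 5 of 20 for Wnt (Tle4, a co-repressor, 7.31 and 7.68 in WT ESC replicates 2 and 3), 3 of 16 for FGF and MAPK (the receptor Fgfr2 and the transcription factor Etv5 among them) and 1 of 14 for TGF-beta, Nodal and BMP (the co-receptor Tdgf1), shares of 7.14 to 25% that lie below the 28.7% of all genes.

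Adhesion, matrix and cytoskeleton genes had stem-cell shares above the 28.7% of all genes. Of 24 matrix, integrin and cytoskeleton genes 15 (62.5%) held a stem-cell region, 5 a shared region and none an embryoid-body region. In 6 of the 15 no WT EB peak lay elsewhere in the gene, against 984 of the 1361 genes in all. The myosin Myh10 (9.74, 11.3 and 7.89), the actinin Actn4 (7.55, 8.94 and 9.27) and the spectraplakin Macf1 (11.1, 15.9 and 6.96) were among them. Lama1, a laminin of basement membranes, had a stem-cell region (7.98, 12.2 and 7.55) and a shared one with 27.2, 30.6 and 8.31 in WT ESC and 7.45, 11.1 and 13.4 in WT EB. Of 43 axon guidance, adhesion and synaptic genes 21 (48.8%) held a stem-cell region, 18 of them without any WT EB peak, and 1 held an embryoid-body region. Epha4, an ephrin receptor (10.2, 14.7 and 14), and Igsf21, a synaptic adhesion protein with a repeat (10.2, 14.2 and 12.3), followed Cdh4. Magi1, a junctional scaffold, was shared (21.6, 31.4 and 23.5 in WT ESC, 17 and 13.2 in WT EB replicates 2 and 3). The part of gene length in these shares was not tested.

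The cell cycle, splicing and translation lists had shared and embryoid-body shares above the 9.09% and 4.30% of all genes, and the elongation list did so for embryoid-body regions and not for shared ones. Of 26 cell cycle genes 11 (42.3%) held a shared, 3 (11.5%) an embryoid-body and 4 (15.4%) a stem-cell region. The condensin subunits Smc4 (18.7 and 11.3 in WT ESC, 20.9 and 28.8 in WT EB, replicates 2 and 3) and Smc2 (10.5 and 11.3 against 28.9 and 42.9) and the cohesin subunit Smc1a (7.78 and 7.58 against 17.7 and 17.6) held shared regions with these fold enrichments, and none was called by rank. Percentiles of the Smc4 region overlapped (98.4 and 93.0 against 98.0 and 99.2), and the shared regions of Smc1a differed among themselves, with one at 6.53, 14.3 and 16.8 in WT ESC and 18.3 and 22.1 in WT EB replicates 2 and 3, and another at 9.47, 6.55 and 12.2 in WT ESC and 4.18, 8.39 and 10.1 in WT EB. Of 48 splicing factors and hnRNPs 22 (45.8%) held a stem-cell, 18 (37.5%) a shared and 6 (12.5%) an embryoid-body region. Luc7l3 and Srsf11, splicing factors, were shared at 12.6 and 8.87 against 13.8 and 15.1 and at 6.80, 12.7 and 9.68 against 13.5 and 20.7. Of 17 ribosomal and translation genes 7 (41.2%) held a shared and 3 (17.6%) an embryoid-body region, among them the helicase Eif4a2 (6.83 and 8.06). Of 24 transcription elongation genes 14 (58.3%) held a stem-cell, 2 (8.33%) a shared and 6 (25%) an embryoid-body region. The stem-cell ones included both cyclin T genes, Ccnt1 (3′ UTR, 8.45 and 8.78 in WT ESC replicates 1 and 2) and Ccnt2 (intron, 9.10 and 12.7), and the embryoid-body ones Cdc73 and Tcea1.

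Lists of chromatin, DNA and RNA modification and DNA damage genes had stem-cell shares from 19 to 35.3%, around the 28.7% of all genes. Their shared shares lay above the 9.09% of all genes, except for DNA methylation at 0. Embryoid-body shares lay above the 4.30% of all genes in the remodeller, histone and DNA damage lists. They were 0 in the Polycomb, DNA methylation and RNA methylation lists. Of 35 genes in the list of chromatin remodellers (BAF, NuRD, CHD and others) 8 (22.9%) held a stem-cell, 5 (14.3%) a shared and 4 (11.4%) an embryoid-body region. Chd8 (9.97, 17.2 and 7.77) and Ino80 (7.70 and 7.87 in WT ESC replicates 2 and 3) were stem-cell, and Srcap was shared (12.4, 12.7 and 7.68 against 6.92, 10.1 and 20.9). Of 17 Polycomb genes 6 (35.3%) held a stem-cell and none an embryoid-body region, with Rbbp7, a histone chaperone, in its 5′ UTR (9.55 and 9.74 in WT ESC replicates 1 and 3) and Jarid2, a PRC2 subunit, in its coding sequence (5.96, 8.15 and 5.66). Of 32 histone methyltransferase and demethylase genes 9 (28.1%) held a stem-cell, 5 (15.6%) a shared and 2 (6.25%) an embryoid-body region. Rbbp5 of the MLL complexes held a stem-cell region (10.3, 7.78 and 10.1). Of 14 DNA methylation genes 4 (28.6%) did, Dnmt1, the maintenance methyltransferase, at 10.6 and 7.08, and none held a shared or embryoid-body one. Of 16 RNA methylation genes 4 held a stem-cell region, led by the demethylase Fto, and 3 a shared one. Of 21 p53 and DNA damage genes 4 (19%) held a stem-cell region and 2 an embryoid-body region, one of them in Rad50 (12.1 and 10.1), a subunit of the MRN complex.

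Of 34 pluripotency genes 17 had a region, and of these 6 (35.3%) held a stem-cell, 1 (5.88%) a shared and 2 (11.8%) an embryoid-body region. The shares of all coding genes with a region were 28.7%, 9.09% and 4.30%. Sox2, a core pluripotency factor named after its values were seen, held 2 stem-cell regions in its 3′ UTR (3.38 and 3.73, and 5.10 and 2.83, in WT ESC replicates 2 and 3), and 1 WT EB library had a peak elsewhere among its 4 regions. All of these Sox2 values lay below the median fold enrichments of those 2 lists, 5.56 and 5.554. Esrrb, a nuclear receptor of the naive state, had 5.81 and 5.26 in WT ESC replicates 1 and 2, and Nr5a2, another nuclear receptor, 4.83 and 5.34 in replicates 2 and 3. Pou5f1, Nanog and Klf4 had no peak in any of the 6 lists, and neither had any of the 4 markers of primitive ectoderm or the 4 of mesendoderm. The pluripotency markers Zfp42 and Tbx3 went the other way from Sox2 and Esrrb, each with a peak in 1 WT EB library and in no WT ESC library. These lists hold no expression values, so the identity of the cells could not be checked against marker levels. Of 37 germ layer genes 12 had a region, and of these 4 (33.3%) held a stem-cell, 3 a shared and 1 (8.33%) an embryoid-body region. The list of small RNA host and long noncoding genes had 13 with a region, of which 8 held a stem-cell, 4 a shared and 1 an embryoid-body region. The shares over coding genes are no background for this list. Pvt1 had 9.80, 12.4 and 9.29 in WT ESC. Xist, the RNA that silences an X chromosome, was shared at 9.01, 16.5 and 16.9 against 27.9 and 50.2 in WT EB replicates 2 and 3 (chrX:100662684-100662975), and Meg3, an imprinted RNA, at 8.83, 8.64 and 11.4 against 10.8 and 18.5. H19, an imprinted RNA that was named after its values were seen, was the one embryoid-body region of the list, at 9.63 and 7.49 in WT EB replicates 1 and 3 (chr7:149763770-149763987). Xist and Tsix overlap on opposite strands and the lists give no strand, so their regions cannot be assigned to one of them with certainty.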

How the data were processed

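Per the labels and the study's methods, the authors removed rRNA and tRNA reads, mapped the rest with STAR to mm9 and used MACS2 with the input of the same replicate as control, keeping peaks with a q-value under 0.05. The deposited lists give intervals of 200 bp around each summit and, for WT ESC, TKO ESC and WT EB, the fold enrichment over input, a ratio that the authors' caller computed. The knock-in lists give positions. Inputs were not analysed here on their own, and the study's differential measure, which needs reads, was not used.

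Regions were annotated by summit with GENCODE M1 on NCBIM37, with 11 member regions lying off that reference. Tandem repeats were counted from 18 bases on for units of 1 to 3 bases and from 20 bases on for units of 4. A percentile is the rank of a value in its list. Ranks were compared with limma 3.58.1 (R 4.3.3), with no block for replicate number, and Benjamini-Hochberg adjustment over all shared regions, in place of a count test that the ratio does not allow. The other steps used Python 3.11.15, pandas 2.3.3, scipy 1.17.1 and pysam 0.24.0. The limma step was tested on simulated data, where it made no false call and recovered few of the planted changes. The study describes the replicates as independent experiments, and the labels do not say whether they were separate cultures, so p-values measure the spread between these libraries. Members, gene lists and tests were chosen with earlier results of these data known. Genes were named by rule: for the one-sided classes, the 12 coding regions with the highest lowest percentile, those in all 3 libraries first; for shared regions, ranks without overlap in all 6 libraries, since none was called, and the 3 with the highest lowest percentile; for lists, up to 4 genes by lowest percentile; and up to 8 genes with both one-sided classes. The stretches at exon edges and the repeats shown were chosen after the data were seen. Some items that these rules select are not reported here.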

Additional observations from a re-analysis of the deposited data

How the results depend on the processing

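Limits come from list length and from the lack of reads. Reads could not be thinned to equal depth, and lists shortened to equal length stand in for that. The stem-cell count was 1394 among peaks at or above the median fold enrichment of their list, 167 with lists shortened to the shortest of the 6, 368 in the 1703 libraries with lists shortened to the shortest of the 4, 843 in all 3 libraries and 1849 without tandem repeats, and the embryoid-body count was 173, 135, 415, 3 and 284. Leaving out 1 library gave 1326 to 3132 stem-cell and 5 to 451 embryoid-body regions. The share of WT ESC regions that no WT EB library listed was 70.3%, 52.5%, 47.7%, 54.7% and 60.9% under these alternatives, 63.8% in the 1703 libraries and 60.5 to 74.7% with 1 library left out. The reverse share was 26.8%, 49.8%, 47.3% and 2.61% under the first 4 and 3.29 to 34.7% with 1 library left out. The exonic share of stem-cell regions was 14.8% with any exon overlap, 7.78% in shortened lists, 12.5% in the 1703 libraries, 15.8% without repeats and 10.5 to 12.1% with 1 library left out. For embryoid-body regions it was 79.9% with any overlap, 52.6% in shortened lists, 66.7% in all 3 libraries (2 of 3 regions) and 30 to 46.6% with 1 library left out. The repeat share of stem-cell regions was 14.4% in shortened lists, 28.9% in the 1703 libraries and 30.2 to 38.5% with 1 library left out, and that of embryoid-body regions 0 in all 3 libraries and 0 to 1.82% with 1 left out. The mean knock-in difference was 19.5 points in shortened lists, 11.7 in the 1703 libraries, 30.8 in all 3 libraries, 15.3 without repeats and 2.76 to 21.1 with 1 library left out, positive each time. The rank test gave 0 calls in each direction under every alternative, the replicate block included. Ranked over the regions listed by all 6 libraries, which was chosen after seeing the data, 4 regions were higher and 6 lower in every WT EB library, against 2 and 19. Over equal numbers of regions, also chosen after seeing the data, the share of introns without a repeat was 5.32 points higher in WT ESC, against 4.64 lower in the whole lists, and the other shares kept their direction. Replicate numbers were not taken as pairs, since deviations of same-numbered libraries from their group means correlated at 0.25, 0.013 and -0.0019.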
